A study of Mus musculus with 2 samples.

Results

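The 10 genes described are the NF-kB subunits Rela, Rel, Relb, Nfkb1 and Nfkb2 and the inhibitors Nfkbia, Nfkbie, Nfkbiz, Bcl3 and Tnfaip3, chosen by gene symbol from a table of 55401 gene rows. Each symbol matched 1 row. Their messenger RNA was sequenced after poly(A) selection from myeloid-derived suppressor cells (MDSCs), a mix of immature neutrophil-like and monocyte-like cells that dampen T cell responses to tumours. MDSCs were pulled out with magnetic beads from C57BL/6 mice, 8 weeks old, that bore tumours of the colon adenocarcinoma line MC38, and were cultured together with MC38 cells for 24 h. The library labelled KO_MDSC came from LysM-cre, Mettl3fl/fl mice, in which Cre is driven from the lysozyme locus in myeloid cells, and the library labelled WT_MDSC, the control, from Mettl3fl/fl mice, which carry the same floxed alleles without Cre (1 library each). The tumour line of the LysM-cre sample is written MC39 in one label field and MC38 in the protocol. The labels do not state how many mice were pooled for a library.

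NF-kB is a family of dimeric transcription factors that switch on genes of inflammation and survival in myeloid cells. In resting cells IkB proteins hold the dimers in the cytoplasm. Signals from Toll-like, interleukin 1 and tumour necrosis factor receptors activate the IKK kinases, IkB is destroyed, and the released dimers enter the nucleus, where they also switch on genes of their own inhibitors. Mettl3 encodes the enzyme that adds N6-methyladenosine (m6A) to messenger RNA.

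Mettl3 stood at 3.92 FPKM (a level per length of gene and per depth of library) in the library labelled KO_MDSC and at 4.16 FPKM in the control. The ratio of counts scaled to the library total (CPM) was 0.945, with an exact 95% interval of 0.876 to 1.02, so the whole-gene level did not show the deletion beyond counting error. The row of Tox4, with 6365 counts in KO_MDSC and 6576 in WT_MDSC, overlaps that of Mettl3 by 1561 bases on the opposite strand, and whether some of its reads were counted for Mettl3 cannot be told from the sources used here. Which exons are floxed is not in the labels, and the value bears on the whole gene. Directions below are those of the libraries as labelled. That library held 59393864 counts and the control 59506878. With 1 library per genotype no p-value is given, and every interval covers counting error only. Of 10 lists of cell type markers, the 12 neutrophil genes summed to 11229 FPKM in the library labelled KO_MDSC and 12746 FPKM in the control, with 9 lower. The 9 macrophage genes summed to 2166 FPKM in KO_MDSC and 1926 FPKM in WT_MDSC, with 8 higher, and the 8 eosinophil genes to 895 FPKM in KO_MDSC and 672 FPKM in WT_MDSC, with 8 higher. The 8 B and plasma cell genes summed to 738 FPKM in the library labelled KO_MDSC and 454 FPKM in the control, of which 7 were lower and Jchain was higher. The 8 monocyte genes summed to 1043 FPKM in KO_MDSC and 968 FPKM in WT_MDSC, with 5 higher and 3 lower (Ly6c2, Fcgr1 and Ms4a6c). Among the higher ones, Cx3cr1 stood at 61.6 FPKM in KO_MDSC and 6.16 FPKM in WT_MDSC, on a row that overlaps others on the same strand. Most of the difference between the monocyte sums lies in the Cx3cr1 row. The 6 erythroid genes summed to 1379 FPKM in KO_MDSC and 984 FPKM in WT_MDSC, with 6 higher. The 8 T and NK cell genes summed to 199 FPKM in KO_MDSC and 192 FPKM in WT_MDSC. Of the 6 of them that reached a mean of 1 FPKM, 2 were higher and 4 lower. The 7 dendritic cell genes summed to 97.0 FPKM in KO_MDSC and 91.0 FPKM in WT_MDSC, and the 6 fibroblast and endothelium genes to 18.5 and 17.3 FPKM. Of 6 epithelial genes that tumour cells could carry, 2 reached a mean of 1 FPKM. These were Cdh1, at 1.73 FPKM in KO_MDSC and 1.78 FPKM in WT_MDSC, and Krt18, at 1.43 and 0.837 FPKM. Epcam, Krt8 and Cldn4 had counts in both libraries below that mean, and Krt19 was at 0 in both. How much RNA of MC38 cells was present was not tested. The part of the cell mix in the values of the NF-kB genes was not tested, and in bulk RNA fewer cells of a type and less RNA per cell cannot be told apart.

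Because NF-kB acts on promoters of its own genes, the promoters were searched for the sites it binds. RefSeq promoter windows (build GRCm38.p6, 250 bases before to 50 after a start) were matched for 7 of the 10 genes, and Nfkb1, Relb and Nfkbiz had none in the table. The kB consensus, read on both strands, was found in windows of 6 of the 7, which were Rel, Nfkb2, Nfkbia, Nfkbie, Bcl3 and Tnfaip3. Counted in the same way over any window of a gene, 9.55% of 27025 genes held it, and 8.46% of all 32851 windows did. The narrower pattern GGGNNTTTCC and its reverse complement, which largely overlaps the consensus, was found for 4 of the 7 (Rel, Nfkb2, Nfkbia and Tnfaip3), against 1.89% of all genes. The looser pattern GGGNNNNNCC, which contains both, was found for all 7 and for 53.5% of all genes. Such a match describes letters and is not a measured binding site. The 250 bases before the start are shown for the subunits and inhibitors whose levels differed most, Rela, Rel, Nfkbia and Nfkbie, and for Tnfaip3, whose level was close in both libraries, with matches to the kB consensus in capitals.
Rela, chr19:5637291-5637540, plus strand: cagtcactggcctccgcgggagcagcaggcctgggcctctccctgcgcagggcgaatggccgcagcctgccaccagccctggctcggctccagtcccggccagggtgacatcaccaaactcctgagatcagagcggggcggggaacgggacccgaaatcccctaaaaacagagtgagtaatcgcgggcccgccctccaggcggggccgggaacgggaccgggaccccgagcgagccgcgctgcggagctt
Rel, chr11:23770970-23771219, minus strand: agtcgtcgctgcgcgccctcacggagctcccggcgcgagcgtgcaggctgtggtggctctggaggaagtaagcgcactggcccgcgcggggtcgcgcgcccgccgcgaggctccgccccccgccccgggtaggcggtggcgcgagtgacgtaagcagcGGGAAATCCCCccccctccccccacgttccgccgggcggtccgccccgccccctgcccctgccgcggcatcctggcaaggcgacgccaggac
Nfkbia, chr12:55492648-55492897, minus strand: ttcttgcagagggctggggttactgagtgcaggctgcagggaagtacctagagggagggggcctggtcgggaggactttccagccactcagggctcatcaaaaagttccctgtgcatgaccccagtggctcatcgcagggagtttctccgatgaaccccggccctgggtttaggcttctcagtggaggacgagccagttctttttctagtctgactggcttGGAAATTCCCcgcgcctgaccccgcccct
Nfkbie, chr17:45555450-45555699, plus strand: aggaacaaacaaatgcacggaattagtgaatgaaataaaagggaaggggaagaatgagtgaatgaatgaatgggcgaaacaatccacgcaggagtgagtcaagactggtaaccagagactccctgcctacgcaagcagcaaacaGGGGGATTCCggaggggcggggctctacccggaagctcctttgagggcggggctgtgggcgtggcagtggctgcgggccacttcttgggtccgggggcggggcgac
Tnfaip3, chr10:19015411-19015660, minus strand: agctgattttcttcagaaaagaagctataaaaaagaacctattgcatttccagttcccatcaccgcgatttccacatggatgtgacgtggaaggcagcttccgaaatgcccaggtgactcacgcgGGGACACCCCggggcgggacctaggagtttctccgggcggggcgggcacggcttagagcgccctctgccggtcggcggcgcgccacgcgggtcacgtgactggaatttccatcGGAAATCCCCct
The Nfkbia match begins 29 bases before the start and the Tnfaip3 matches 125 and 12 bases before it, while the Nfkbie match begins 106 bases before it. In Rel, matches on both strands overlap from 92 bases before the start. Rela has no match to the kB consensus in its window. A relation of the matches to the levels was not tested. In Nfkb2, 3 matches lie in the first of its 3 windows, at 39, 38 and 11 bases before the start. Those at 39 and 38 overlap on opposite strands. The Bcl3 match GGGAAGTCCC begins 3 bases into the transcript.

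**Figure D1:**
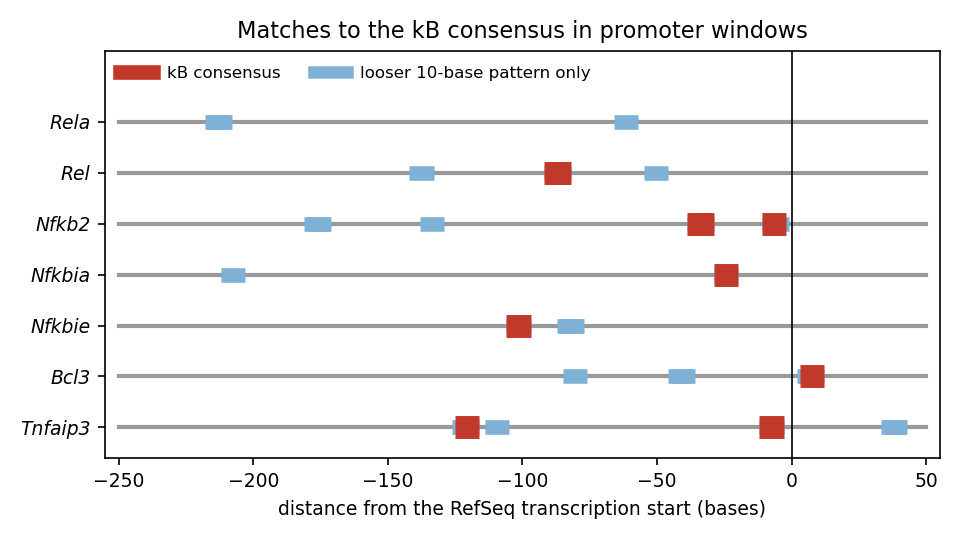
Matches to the kB consensus (red) and to the looser pattern GGGNNNNNCC (blue) in 1 promoter window of each of 7 genes, by distance in bases from the RefSeq start (vertical line), both strands together. Red matches appear in 6 of 7 genes, with none in Rela.

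All 10 genes were expressed, each with 1871 to 21853 counts in a library, and all passed the minimum mean of 1 FPKM that 12526 rows passed. None differed by 1.5-fold or more in FPKM + 1 between the libraries, while 6.47% of all rows kept did (3.19% higher, 3.28% lower in the library labelled KO_MDSC). With 10 genes, a share of that size would give fewer than 1. The log2 ratios ran from −0.16 to 0.31, 7 of them above 0 (higher in the library labelled KO_MDSC) and 3 below (50.3% of all rows kept were higher). Their median was 0.06, against 0.00 for all rows kept. Their median absolute log2 ratio was 0.13, against 0.11 for all rows kept and 0.099 for the protein-coding rows kept. At 2-fold or more it was 0 of the 10, against 2.49% of all rows kept. At 1.2-fold or more 2 of the 10 were higher and 0 lower, against 10.9% and 9.85% of all rows kept. The counting interval of the CPM ratio lay above 1 for 5 and below 1 for 2 of the 10. At this depth that is common: among 5653 rows with at least 1871 counts in both libraries, the interval lay above 1 for 30.6% and below 1 for 36.2%.

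**Figure D2:**
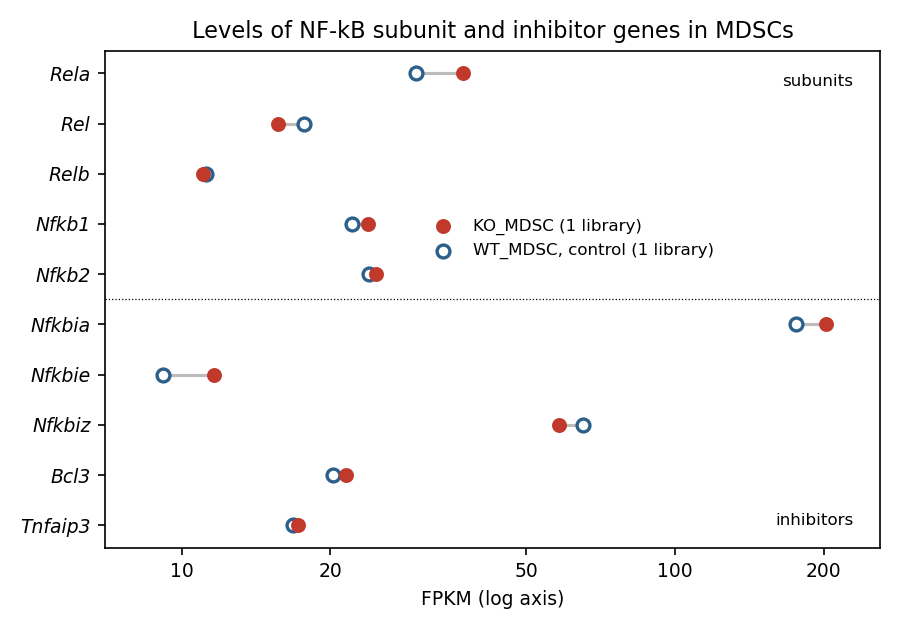
FPKM (log axis) of the 5 subunit genes (above the dotted line) and the 5 inhibitor genes (below it), with 1 point per library and a grey line joining the libraries. Nfkbia is highest at 203 and 176 FPKM in the library labelled KO_MDSC and the control, and the points of Relb and Tnfaip3 nearly coincide.

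The order of the levels was nearly the same in both libraries. Nfkbia was first and Nfkbiz second in each, followed by Rela, Nfkb2, Nfkb1 and Bcl3. Tnfaip3 came before Rel and Nfkbie before Relb in the library labelled KO_MDSC, and each pair stood the other way round in the control. By counting intervals of the FPKM, Nfkb2 (24.2 to 25.3) overlapped Nfkb1 (23.5 to 24.2) in the library labelled KO_MDSC, as did Nfkbie (11.2 to 12.1) and Relb (10.6 to 11.5), whereas no neighbours overlapped in the control. Spread between animals would add to these intervals, and it cannot be measured here.

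Among the subunits that carry a transactivation domain, Rela was the most abundant and was higher in the library labelled KO_MDSC. Rela (ENSMUSG00000024927, chromosome 19, 5637483 to 5648130, plus strand) encodes the main activating subunit of the classical pathway. It stood at 37.2 FPKM on 7622 counts in the library labelled KO_MDSC and at 29.9 FPKM on 6129 counts in the control. The CPM ratio was 1.25 (95% interval 1.205 to 1.29) and the log2 ratio of FPKM + 1 was 0.31. Of all rows kept, 82.9% had a smaller absolute log2 ratio.

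Rel went the other way. Rel (ENSMUSG00000020275, chromosome 11, 23736847 to 23770970, minus strand) encodes c-Rel, a subunit known for lymphocyte and myeloid cytokine genes. It stood at 15.7 FPKM on 7804 counts in the library labelled KO_MDSC and at 17.7 FPKM on 8830 counts in the control, a CPM ratio of 0.885 (0.859 to 0.913). Rela thus exceeded Rel by 2.37 times in FPKM in the library labelled KO_MDSC and by 1.69 times in the control, and this proportion was 1.41 times as high (1.34 to 1.47) in the library labelled KO_MDSC. It pairs the most raised subunit with the most lowered one, so it describes these values and adds no independent evidence.

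Relb, the partner of Nfkb2 in the alternative pathway, was close in both libraries. Relb (ENSMUSG00000002983, chromosome 7, 19606217 to 19629438, minus strand) stood at 11.05 FPKM on 2864 counts in the library labelled KO_MDSC and at 11.2 FPKM on 2915 counts in the control. Its CPM ratio of 0.984 had an interval of 0.935 to 1.04, which holds 1.

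The precursor subunits differed little. Nfkb1 and Nfkb2 each encode a long protein that ends in an IkB-like part and is trimmed to a DNA-binding subunit. Nfkb1 (ENSMUSG00000028163, chromosome 3, 135584655 to 135691546, minus strand) stood at 23.8 FPKM on 19175 counts in the library labelled KO_MDSC and at 22.1 FPKM on 17850 counts in the control, a CPM ratio of 1.08 (1.05 to 1.099). Its row overlaps that of Gm43430 on the same strand, which held 40 counts in KO_MDSC and 26 in WT_MDSC. Nfkb2 (ENSMUSG00000025225, chromosome 19, 46304320 to 46312385, plus strand) stood at 24.7 FPKM on 7557 counts in the library labelled KO_MDSC and at 23.9 FPKM on 7337 counts in the control, and the interval of its CPM ratio of 1.03 (0.999 to 1.07) holds 1. The Nfkb2 row overlaps Psd and 4833438C02Rik on the opposite strand, with 440 and 1202 counts in the library labelled KO_MDSC and 324 and 1025 in the control. The sources used here do not say how strand was used in counting, so the part of these rows in the Nfkb2 value is uncertain.

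Summed over the 5 subunits, FPKM came to 112 in the library labelled KO_MDSC and 105 in the control. Rela made up 33.1% of the sum in the library labelled KO_MDSC and 28.5% in the control, and Rel made up 13.9% in KO_MDSC and 16.9% in WT_MDSC. The KO_MDSC and WT_MDSC shares of Nfkb1 (21.2% and 21.1%), Nfkb2 (21.98% and 22.8%) and Relb (9.82% and 10.7%) were within 1 percentage point of each other.

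**Figure D3:**
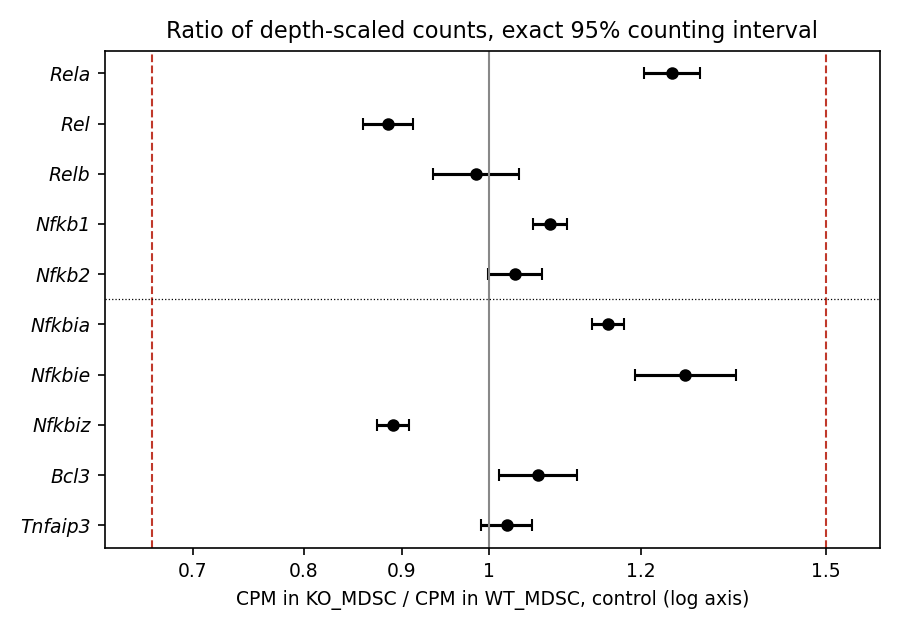
CPM in the library labelled KO_MDSC over CPM in the floxed control (log axis) for the 10 genes, 1 library each, with exact 95% counting intervals as bars, a line at 1 and dashed lines at 1.5-fold in either direction. Rela, Nfkb1, Nfkbia, Nfkbie and Bcl3 lie above 1 with their intervals, Rel and Nfkbiz below 1, and none reaches a dashed line.

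Nfkbia and Nfkbie encode classical IkB proteins, which hold NF-kB in the cytoplasm, and both were higher in the library labelled KO_MDSC. The third classical IkB gene, Nfkbib, is not among the 10 and stood at 15.8 FPKM in KO_MDSC and 16.5 FPKM in WT_MDSC (CPM ratio 0.961). Nfkbia (ENSMUSG00000021025, chromosome 12, 55489410 to 55492647, minus strand) encodes IkB-alpha, the fast feedback inhibitor. It stood at 203 FPKM on 21744 counts in the library labelled KO_MDSC and at 176 FPKM on 18887 counts in the control, a CPM ratio of 1.15 (1.13 to 1.18). Its level was above that of 98.1% of rows kept in the library labelled KO_MDSC and 97.8% in the control. Nfkbie (ENSMUSG00000023947, chromosome 17, 45555703 to 45563169, plus strand) encodes IkB-epsilon, a slower feedback inhibitor. It stood at 11.6 FPKM on 2365 counts in the library labelled KO_MDSC and at 9.19 FPKM on 1871 counts in the control. Its CPM ratio of 1.27 (1.19 to 1.35) was the highest of the 10, and its log2 ratio of 0.31 was larger in size than that of 83.2% of rows kept. Nfkbia exceeded Nfkbie by 17.4 times in the library labelled KO_MDSC and by 19.1 times in the control.

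The nuclear IkB genes, whose proteins bind subunits on DNA and can raise as well as restrain transcription, did not move together. Nfkbiz (ENSMUSG00000035356, chromosome 16, 55811375 to 55838899, minus strand) encodes IkB-zeta, needed for a late group of Toll-like receptor response genes. It stood at 58.1 FPKM on 19424 counts in the library labelled KO_MDSC and at 65.2 FPKM on 21853 counts in the control, a CPM ratio of 0.891 (0.873 to 0.908). It was the one inhibitor that was lower. Bcl3 (ENSMUSG00000053175, chromosome 7, 19808462 to 19822770, minus strand), whose protein binds dimers made from Nfkb1 and Nfkb2 products, stood at 21.6 FPKM on 3561 counts in the library labelled KO_MDSC and at 20.3 FPKM on 3364 counts in the control. Its CPM ratio was 1.06 (1.01 to 1.11). Gm16175 and Gm16174 overlap Bcl3 on the opposite strand, with 0 and 84 counts in the library labelled KO_MDSC and 8 and 108 in the control.

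Tnfaip3 encodes a ubiquitin-editing enzyme that shuts off signalling upstream of IKK. Tnfaip3 (ENSMUSG00000019850, chromosome 10, 19000910 to 19015410, minus strand) stood at 17.2 FPKM on 8285 counts in the library labelled KO_MDSC and at 16.8 FPKM on 8125 counts in the control. The interval of its CPM ratio of 1.02 (0.991 to 1.05) holds 1, so a difference was not detectable at this depth.

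The balance of inhibitor to subunit messages was close in both libraries. The 5 inhibitors summed to 311 FPKM in the library labelled KO_MDSC and 287 FPKM in the control. Inhibitors over subunits came to 2.77 in the library labelled KO_MDSC and 2.74 in the control, a fold of 1.01 (counting interval 0.990 to 1.03). Nfkbia holds most of the inhibitor sum and was higher together with Rela, and Nfkbia over Rela stood at 5.45 in the library labelled KO_MDSC and 5.88 in the control, a fold of 0.926 (0.891 to 0.963).

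**Figure D4:**
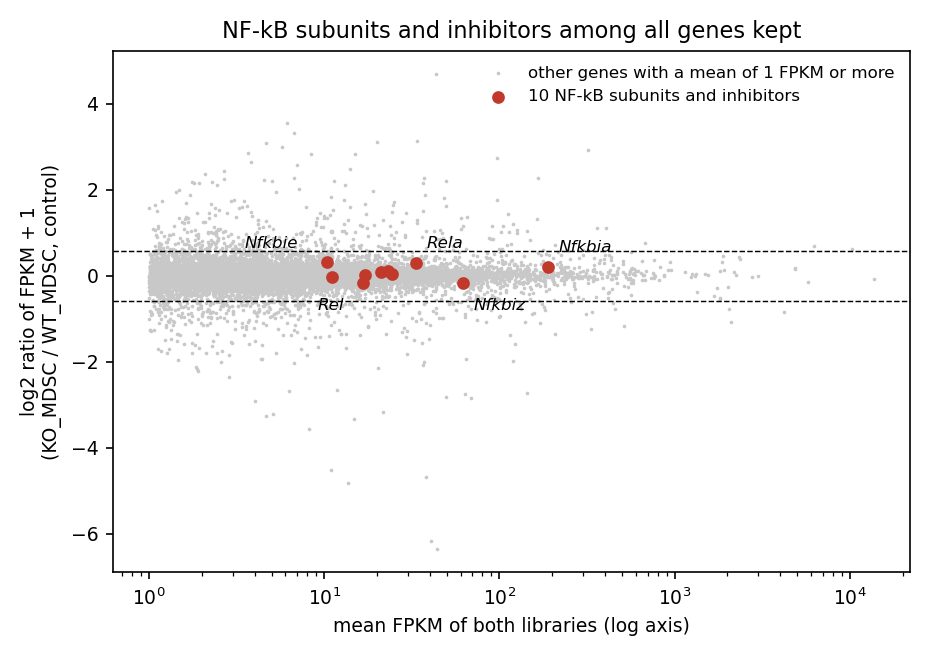
Log2 ratio of FPKM + 1 (library labelled KO_MDSC over control, 1 library each) against mean FPKM (log axis) for the 12526 rows with a mean of 1 FPKM or more, with the 10 genes in red. All 10 lie between the dashed lines at 1.5-fold, from −0.16 for Rel and Nfkbiz to 0.31 for Rela and Nfkbie.

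The messages of the 10 genes also differ in how often they hold GGACT, a base context in which Mettl3 is known to place m6A. In the longest protein-coding GENCODE transcript, the density ran from 0.402 per kilobase in Rel to 2.49 in Tnfaip3. The median was 1.22 per kilobase, against 1.05 for 10228 coding genes kept. Rela (2.21 per kilobase), Nfkb2 (2.08) and Nfkbia (1.901) were also in the upper part, while Nfkbie (0.821), Nfkb1 (0.729) and Nfkbiz (0.486) were below the median of all genes. Relb (1.36) lay above it and Bcl3 (1.08) close to it. The quartiles of the coding genes kept were 0.634 and 1.52, and Relb, Bcl3, Nfkbie and Nfkb1 lay between them. A GGACT count is not a measurement of methylation, and its relation to the ratios was not tested.

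Around the 10 genes, 140 other genes of the pathway were listed by role, and 124 had a mean of 1 FPKM or more. Of all rows kept, 50.3% were higher in the library labelled KO_MDSC, a share to set beside each list below. Of the 124 genes, 58 were higher and 66 lower in that library, with a median log2 ratio of −0.01. At 1.5-fold or more there were 4 higher and 2 lower (4.84%), near the 6.47% of all rows kept.

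Genes of the receptors went both ways. Of 19 kept, 8 were higher and 11 lower, and 1 passed 1.5-fold in FPKM + 1, a share near the 6.47% of all rows kept. Tlr4, the receptor of bacterial endotoxin, stood at 3.49 FPKM on 1294 counts in the library labelled KO_MDSC and at 1.45 FPKM on 538 counts in the control (CPM ratio 2.41, 2.18 to 2.67). Nod1, a sensor of bacterial cell walls, stood at 33.9 and 41.7 FPKM in the library labelled KO_MDSC and the control, the flagellin receptor gene Tlr5 at 1.81 and 1.37, and Il1rap, a chain of the interleukin 1 receptor, at 5.55 and 6.35. Of 7 adaptors and kinases just below these receptors, 6 were higher and 1 lower (median log2 ratio 0.13), where 50.3% of all rows kept were higher. The CPM ratio intervals of Myd88 (0.996 to 1.05), Irak4 (0.981 to 1.07) and the lower gene, Tirap (0.887 to 1.004), hold 1. None of the 7 passed 1.5-fold in FPKM + 1. Irak2, a kinase that sustains the signal, stood at 12.5 FPKM in the library labelled KO_MDSC and 9.11 FPKM in the control, Ticam1, the adaptor TRIF, at 10.6 and 8.43 FPKM, and Ticam2, an adaptor that bridges Tlr4 to TRIF, at 8.83 and 7.95 FPKM. Irak1 stood at 21.98 FPKM in KO_MDSC and 18.8 FPKM in WT_MDSC. The rows of Irak1, Irak2, Ticam2 and Myd88, and below those of Skp1, Traf5, Ripk2 and Ep300, overlap other rows on the same strand, so their values are less certain. Of 8 ligands kept, 5 were higher and 3 lower, with Il1a at 10.9 and 7.88 FPKM and Il1b, the most abundant, at 650 and 697 FPKM in the library labelled KO_MDSC and the control. In KO_MDSC and WT_MDSC, Il18 (36.5 and 35.04 FPKM) and Tnfsf13b, the B cell survival factor BAFF (1.89 and 1.56 FPKM), differed less on the log2 scale than Il1a.

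The kinases and ligases that release NF-kB were near level. All 11 IKK and activating kinase genes were kept, 5 higher and 6 lower, with log2 ratios from −0.19 to 0.16. Tbk1, a kinase related to the IKKs, stood at 18.6 FPKM in the library labelled KO_MDSC and 21.3 FPKM in the control, Tab1 at 5.64 and 4.95 FPKM, Map3k8, which encodes the kinase TPL2, at 8.71 and 9.64 FPKM, and Map3k7, which encodes the IKK-activating kinase TAK1, at 11.3 and 10.4 FPKM. Of the ligase that marks IkB for destruction, 4 of 5 genes were kept, with the scaffold Cul1 at 23.1 and 19.8 FPKM and Fbxw11, an IkB-recognising subunit, at 14.5 and 16.6 FPKM in the library labelled KO_MDSC and the control. The ring subunit Rbx1 stood at 9.19 and 10.1 FPKM and Skp1 at 25.8 and 24.5 FPKM in KO_MDSC and WT_MDSC. Of 19 adaptors and ubiquitin enzymes, 5 were higher and 14 lower (50.3% of all rows kept were higher), and none passed 1.5-fold in FPKM + 1. Traf3, which restrains the alternative pathway, stood at 4.70 FPKM in the library labelled KO_MDSC and 3.49 FPKM in the control, Traf5 at 5.36 and 6.64, Traf2 at 6.78 and 7.95, and Ripk2, the kinase below Nod1, at 9.98 and 8.96.

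**Figure D5:**
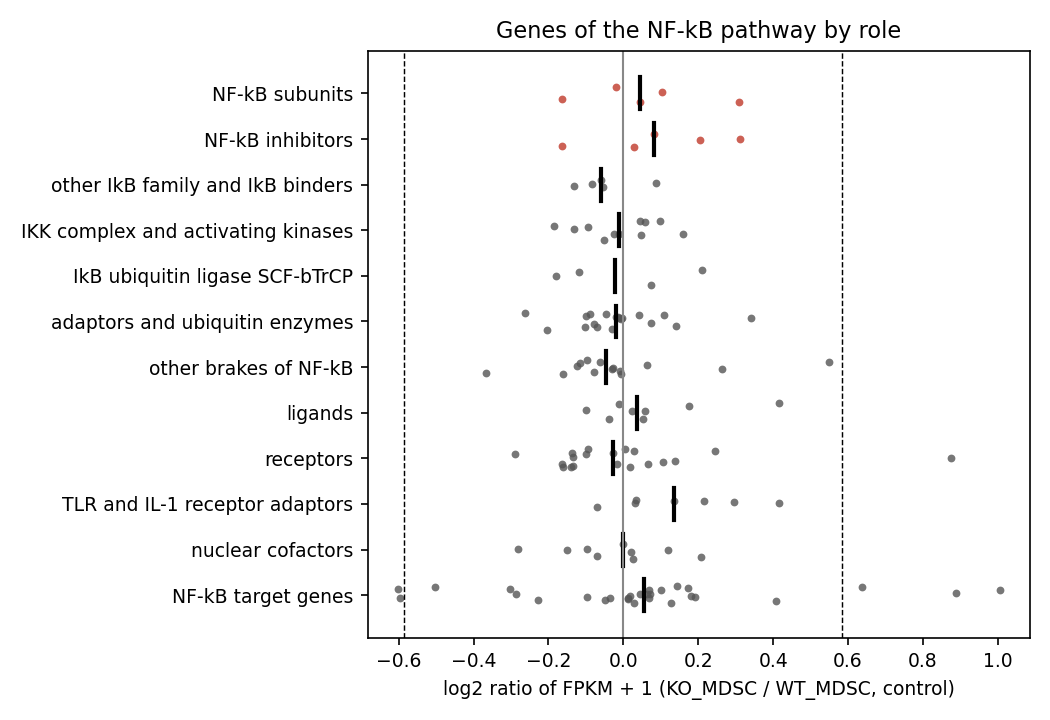
Log2 ratio of FPKM + 1 (library labelled KO_MDSC over control) of each kept gene of the pathway by role, with 1 point per gene, a black bar at the median of a list and dashed lines at 1.5-fold. The subunits and inhibitors (red) lie inside the dashed lines, and the points outside them are Tlr4 among the receptors and 5 target genes.

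Of 14 other brakes of the pathway kept, 3 were higher and 11 lower (median log2 ratio −0.05), where 50.3% of all rows kept were higher. Counting intervals of several hold 1, among them Tnip1 (lower, 0.963 to 1.03) and Zc3h12a (higher, 0.998 to 1.097). No brake passed 1.5-fold in FPKM + 1. Commd1 passed it as a CPM ratio (1.82, 1.63 to 2.03), which has no pseudocount. Commd1, which promotes the loss of Rela protein, stood at 2.39 FPKM in the library labelled KO_MDSC and 1.32 FPKM in the control, on a row that overlaps another on the same strand. Irak3, an inhibitor of Toll-like receptor signalling, stood at 10.2 and 13.4 FPKM in KO_MDSC and WT_MDSC, the deubiquitinase gene Cyld at 6.26 and 5.05 FPKM, and Sigirr, a decoy-like receptor, at 4.67 and 5.34 FPKM. Of 5 further IkB relatives and IkB binders, 1 was higher and 4 lower. Nfkbid, a nuclear IkB, stood at 26.7 FPKM in the library labelled KO_MDSC and 28.4 FPKM in the control, Nfkbil1 at 8.06 and 8.93, Nkiras2 at 16.6 and 17.3 and Nkiras1 at 1.45 and 1.301. Of 9 nuclear cofactors, 4 were higher and 5 lower, with the deacetylase genes Sirt1 at 4.16 and 5.26 FPKM, Hdac1 at 16.8 and 14.5 FPKM and Hdac3 at 9.92 and 9.05 FPKM, and the acetyltransferase gene Ep300 at 14.1 and 15.8 FPKM, in the library labelled KO_MDSC and the control.

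Downstream, target genes went both ways. Of 38 listed, 28 were kept, 19 higher and 9 lower (median log2 ratio 0.05), where 50.3% of all rows kept were higher. Counting intervals of the CPM ratio of several hold 1, among them Ptgs2 (higher, 0.989 to 1.04) and Ccrl2 (lower, 0.936 to 1.01). At 1.5-fold or more in FPKM + 1, 3 were higher and 2 lower, against 3.19% and 3.28% of all rows kept. The higher ones were Cflar, an inhibitor of caspase activation, at 9.99 FPKM in the library labelled KO_MDSC and 4.47 FPKM in the control (CPM ratio 2.23, 2.15 to 2.32), the transcription factor gene Irf1 at 62.0 and 33.0 FPKM (1.87, 1.83 to 1.92) and the early response gene Ier3 at 17.9 and 11.1 FPKM (1.602, 1.47 to 1.75). The lower ones were Il1rn, the interleukin 1 receptor antagonist, at 5.54 FPKM in the library labelled KO_MDSC and 8.92 FPKM in the control (0.621, 0.587 to 0.656), and the chemokine gene Ccl3 at 48.0 and 73.2 FPKM, named after its value was seen because it completes the 5.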

How the data were processed

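One table of both libraries was used. Its count values are whole numbers per gene row, made and deposited by the authors without normalization, and its FPKM values were scaled for depth and gene length by the authors, per the file headers. Where a count was 0 the FPKM is listed as 0.0001, which was set to 0. The submitters' processing notes name StringTie 1.3.4d, HISAT2 2.0.4, cutadapt 1.9, DESeq2 and edgeR, and build mm10. Their roles and their settings for strand and multi-mapping reads are not given in these sources. A further 8 value columns, of 4 libraries without labels, stayed out of every step.

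The minimum for a row was a mean of 1 FPKM. The log2 ratio sets FPKM + 1 in KO_MDSC over FPKM + 1 in WT_MDSC, a scale that understates the differences of low genes. CPM divides counts by the library total, and its ratio has an exact (Clopper-Pearson) 95% interval. FPKM intervals are exact Poisson, and those of sums are normal approximations on the log scale. All intervals cover counting error only and treat each read as a separate molecule. Reads copied by PCR do not count separate molecules, so the intervals can be too narrow even for counting error. TMM factors came from edgeR 4.0.16 (R 4.3.3). Other steps used Python 3.11.15, pandas 2.3.3 and scipy 1.17.1, and the procedure was tested on simulated data. Those data held counting error only, so the test does not bear on differences between animals or on PCR copies. Positions are those of the deposited table, of which 8 of 10 members match GENCODE M21. Promoters are RefSeq's (GRCm38.p6), and 7 of 10 members matched.

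The members and lists were chosen with earlier results of these data known. The 227 listed symbols all matched, 1 by an older symbol. Named genes are all members, Mettl3, rows overlapping a member on the same strand, and up to 4 kept genes per pathway list with the largest absolute log2 ratio. Nfkbib, Myd88, Irak4, Tirap, Tnip1, Zc3h12a, Ptgs2, Ccrl2, rows overlapping on the opposite strand, and markers were named after their values were seen.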

Additional observations from a re-analysis of the deposited data

How the results depend on the processing

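All 10 members kept their direction under 8 alternatives (other pseudocounts, TPM, CPM, TMM and median-ratio scaling, and rows summed by overlap or by symbol), and 79 of 80 values stayed within the counting interval. The exception was Nfkbie at a pseudocount of 5 FPKM, with a log2 ratio of 0.23. A pseudocount cannot change a direction, and no setting moved the median log2 ratio of all rows kept by more than 0.017. The kept directions therefore say little, and those of Relb, Nfkb2 and Tnfaip3 are within counting error. No member reached 1.5-fold under the 8 alternatives or 2-fold at that threshold, and 2 did at 1.2-fold. The count of 6 pathway genes at 1.5-fold became 7 with CPM, TPM or a pseudocount of 0.1 FPKM. It became 2 at a pseudocount of 5 FPKM, which shrinks ratios of low genes. At other thresholds it was 19 of 124 at 1.2-fold and 1 of 124 at 2-fold. Of all rows kept, 10.9% were higher and 9.85% lower by 1.2-fold or more, and 2.49% differed by 2-fold or more. Inhibitors over subunits, at a fold of 1.01, came to 0.979 with CPM, which is not per length, and to 0.969 without Nfkbia and Rela, so its direction is not settled. The median log2 ratio of the members ran from 0.04 without Nfkb1 to 0.07 with the mean in its place, and the Mettl3 log2 ratio stayed within its counting interval. No paired analysis was possible because each genotype had 1 library. Depth limits differences to those beyond a counting interval whose full width was at most 12.2% of the ratio, and differences between animals cannot be judged.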
